A study of Rattus norvegicus and Mus musculus and Macaca mulatta with 84 samples.

Results

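The genes described here build cholesterol, take it up and move it within the cell, store it as ester, or export it. They were chosen by name as a set of 35 genes: 20 of synthesis, 5 regulators, 4 of uptake and intracellular transport, 2 of esterification and 4 of export. The choice was made with earlier results of these data known. The rat table lists 34 of them among 32754 genes, since Lbr has no row under that symbol, and the mouse table lists all 35 among 48440 genes. All of them passed the filter on low values, which left 13640 rat genes and 14596 mouse genes for testing.

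Liver polyadenylated RNA was sequenced in 31 libraries of the 84 in the study, which also profiled small RNA in several models of diabetes. Rats of the UCD-T2DM strain, which become obese and insulin resistant before they turn diabetic, were sampled before diabetes (prediabetic, n = 5) and at 2 weeks (n = 4), 3 months (n = 5) and 6 months (n = 6) after its onset. The comparison group is of the same strain and had not become diabetic. It is not a healthy strain, and the labels give no age, diet or sex, so age and duration of diabetes cannot be told apart. C57BL/6J mice received LNA-29, a locked nucleic acid directed at the microRNA miR-29 (n = 5), or were controls (n = 6). The labels name neither the dose nor what the control mice were given, and do not say that the mouse libraries came from separate animals. P-values for the mice therefore measure the spread between these libraries, which may be technical. Each rat library carries its own animal number.

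Cholesterol is made in the endoplasmic reticulum from acetyl-CoA through mevalonate, isoprenoid diphosphates, squalene and lanosterol. The transcription factor SREBP2, the product of Srebf2, turns on nearly every gene of this route when membrane sterol is low. Scap escorts it to the Golgi for activation and the Insig proteins hold it back when sterol is plentiful. Oxysterols activate LXR, whose liver form is encoded by Nr1h3, and LXR turns on the export genes Abca1, Abcg1, Abcg5 and Abcg8 and the ubiquitin ligase Mylip, which marks lipoprotein receptors for degradation. The liver is the organ that both makes cholesterol and clears it into bile, directly through Abcg5 and Abcg8 or after conversion to bile acids.

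The miR-29 family is shown because LNA-29, which was given to the mice, is directed at it. Its mature forms in the rat, from RefSeq (GRCr8), share the seed at bases 2 to 8, printed in capitals:
rno-miR-29a-3p: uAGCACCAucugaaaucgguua
rno-miR-29b-3p: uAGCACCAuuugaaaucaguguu
rno-miR-29c-3p: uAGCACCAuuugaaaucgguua
The forms share the same seed letters and differ in the bases after it.

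Promoter windows of 300 bases (250 before the start of the gene and 50 after it) were taken from RefSeq for the 29 members that matched by symbol. Those without an entry were Pmvk, Fdft1, Sqle, Stard4, Soat2 and Abcg1. Sequences follow for 5 members whose transcripts rose in diabetic rats and whose window holds the letters searched. They give the 250 bases before the start, 5′ to 3′ on the strand of the gene, on GRCr8, whereas the rat build named in the submitters' processing notes is rn6. Capitals mark CCAAT or its reverse complement ATTGG, the letters bound by the factor NF-Y, which acts together with SREBP2:
Hmgcs1 (chr2:53382054-53382303, plus strand): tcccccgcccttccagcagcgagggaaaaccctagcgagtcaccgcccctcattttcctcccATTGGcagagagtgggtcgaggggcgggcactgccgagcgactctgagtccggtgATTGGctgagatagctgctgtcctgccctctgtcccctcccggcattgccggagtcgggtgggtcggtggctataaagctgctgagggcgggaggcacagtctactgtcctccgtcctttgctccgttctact
Idi1 (chr17:66547525-66547774, minus strand): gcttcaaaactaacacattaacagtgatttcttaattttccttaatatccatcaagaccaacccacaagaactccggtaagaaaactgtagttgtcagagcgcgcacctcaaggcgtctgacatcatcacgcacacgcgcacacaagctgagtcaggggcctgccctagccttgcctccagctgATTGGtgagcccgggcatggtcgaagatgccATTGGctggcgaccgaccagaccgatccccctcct
Msmo1 (chr16:29746863-29747112, plus strand): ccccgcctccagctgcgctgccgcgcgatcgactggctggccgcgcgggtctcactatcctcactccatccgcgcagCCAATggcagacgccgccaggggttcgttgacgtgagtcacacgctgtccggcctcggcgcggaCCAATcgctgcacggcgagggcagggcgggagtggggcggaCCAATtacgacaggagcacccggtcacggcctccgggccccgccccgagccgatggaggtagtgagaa
Hsd17b7 (chr13:84722755-84723004, minus strand): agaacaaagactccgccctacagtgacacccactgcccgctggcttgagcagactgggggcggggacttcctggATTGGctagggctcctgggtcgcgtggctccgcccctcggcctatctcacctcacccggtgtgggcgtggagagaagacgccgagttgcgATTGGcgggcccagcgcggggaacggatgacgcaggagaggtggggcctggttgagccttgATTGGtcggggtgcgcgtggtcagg
Srebf2 (chr7:115543057-115543306, plus strand): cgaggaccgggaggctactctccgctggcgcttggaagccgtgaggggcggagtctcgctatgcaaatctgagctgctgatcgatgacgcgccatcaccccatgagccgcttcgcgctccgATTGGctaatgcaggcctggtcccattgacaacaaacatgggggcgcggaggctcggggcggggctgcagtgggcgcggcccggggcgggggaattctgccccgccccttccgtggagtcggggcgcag
The letters CCAAT occurred on either strand in 14 of 17 windows of synthesis genes (82.4%), in 8 of 12 windows of the other members (66.7%) and in 37.5% of all 33469 windows of that length. All windows were not limited to genes that passed the filter, as the members did, so these shares are not of like sets. The 8 of 12 count Abcg5 and Abcg8 separately, though they share 1 match. Hmgcs1 and Idi1 each held 2 matches, Msmo1 and Hsd17b7 each held 3 and Srebf2 held 1. Among the 13 members with a window that rose at 3 or 6 months, 10 held a match (76.9%), a share close to that of all members with a window (22 of 29, 75.9%). The risen members without a match were Acat2, Cyp51 and Dhcr7, and the sequences printed were picked from those with one. The core of the sterol regulatory element, searched as TCACNCCAC on both strands, was in none of the 29 member windows and in 1.12% of all windows. The direct repeat that LXR binds, searched in its strict form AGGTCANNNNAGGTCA on both strands, was likewise in none of the 29 and in 0.00598% of all windows. Letters this rare would be missing from most sets of 29 windows, so neither absence sets the members apart. Only exact matches were counted, so these searches do not show that the members lack either element. None of the 3 motifs contains another. The Abcg5 and Abcg8 windows lie on opposite strands and cover the same 295 bases. The CCAAT match that stands 13 bases before the Abcg5 start is therefore the same match that stands 197 bases before the Abcg8 start.

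The deposited values are normalised counts. The 20 rat libraries summed to between 37623525 and 49858906 of these counts and the 11 mouse libraries to between 43341525 and 52750017, and albumin (Alb) was the highest gene in every library. The rat library prediabetic 2 correlated less with its own group (mean r = 0.959 over all genes tested, on the log2 scale) than the other prediabetic libraries did (0.975 to 0.976). Without it, 13 members were called at 3 months and 13 at 6 months, against 16 and 16 with it. Leaving out each library in turn gave 11 to 16 members and 1449 to 2393 genes at 3 months. At 6 months it gave 13 to 18 members and 1920 to 3573 genes. At 3 months some other omissions thus gave fewer members than that of prediabetic 2. At 6 months its omission gave the lowest member count of the range, as did that of 6 months 1. Differences below are on the scale of log2(value + 1) with their standard error (SE), and "called" means a limma p-value under 0.05 after Benjamini-Hochberg adjustment over all genes tested. Values are not scaled to transcript length, so genes are compared between libraries and never with each other.

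In rats with diabetes of 3 or 6 months 11 and 12 of the 19 genes listed under synthesis rose above their prediabetic level, led by Sqle and Idi1. Nsdhl, Ebp, Sc5d and Pmvk were among those that did not. The risen genes include Ggps1 at both stages, which lies off the sterol route. Most regulators, transport and export genes did not pass the test. At 3 months 15 of 34 members rose and 1 fell, while 7.76% of all genes rose and 8.72% fell, or 16.5% either way. At 6 months the count was again 15 up and 1 down, against 11% and 10% of all genes, or 21.1% either way. Because the set was chosen with earlier results of these data known, its excess over these shares is a description and not a test. The median member difference was 0.54 at 3 months and 0.55 at 6 months, and the median of all genes was 0.02 and 0.01. At 2 weeks no member and no gene of the 13640 was called (0%), although 1077 genes had an unadjusted p under 0.05. The median of the members was then 0.11. The 3 comparisons share the same prediabetic libraries, so their values are given side by side and are not independent of each other. When libraries were rescaled to equal totals, the share of rises among all called genes went from 47.1% to 62.5% at 3 months and from 52.3% to 33.8% at 6 months. The members then numbered 15 up and 1 down at 3 months and 14 up and 1 down at 6 months.

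**Figure D1:**
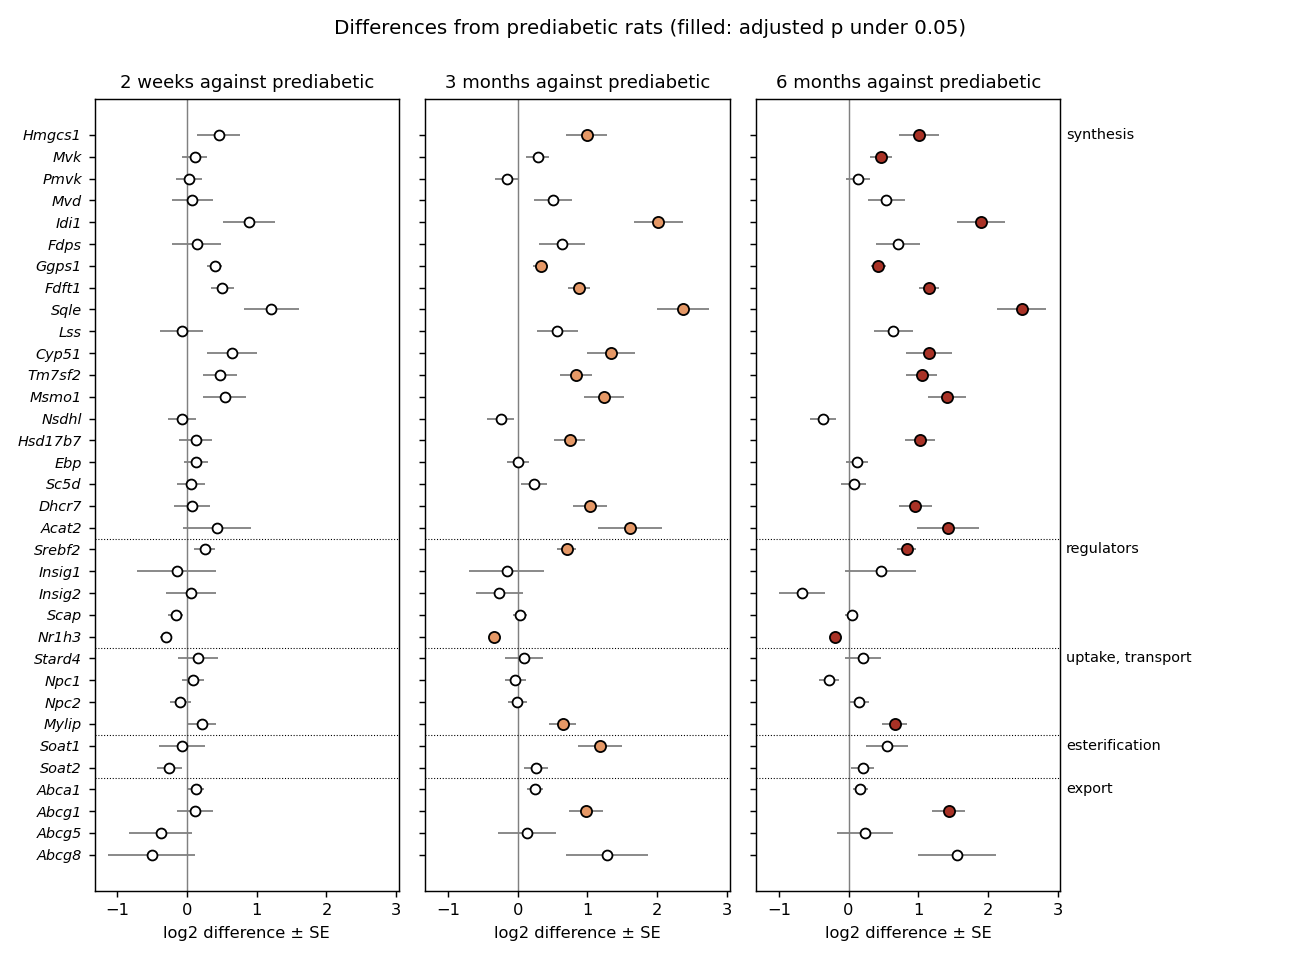
Difference of each of the 34 member genes from prediabetic rats at 2 weeks, 3 months and 6 months, on the log2(value + 1) scale with bars for the SE; filled points have an adjusted p under 0.05 and dotted lines divide the roles. The filled points of the synthesis genes lie to the right of 0 at 3 and 6 months, with Sqle at 2.37 and 2.49, and none is filled at 2 weeks.

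Of the 19 synthesis genes in the rat table, 11 rose at 3 months, 12 rose at 6 months and none fell. Their median difference from prediabetic rats was 0.14 at 2 weeks, when 17 of the 19 were positive, 0.74 at 3 months and 0.96 at 6 months. The route begins with Acat2, the cytosolic thiolase that joins acetyl-CoA units (and not an ester-forming enzyme). Its normalised count was 81.9, 74.1, 164, 233 and 179.9 in prediabetic libraries, 131, 112, 278 and 256 at 2 weeks and 626, 206, 691, 365 and 349 at 3 months. At 6 months it was 104 at the lowest, 407 at the median and 764 at the highest. The 3-month and 6-month values ran higher, and only 3 months 2 and 6 months 2 fell inside the prediabetic range. The difference was 1.61 ± 0.46 at 3 months (limma adjusted p = 0.0233) and 1.43 ± 0.44 at 6 months (limma adjusted p = 0.0277). At 3 months the call was lost without prediabetic 1 or 2 or 3 months 1 or 3 (adjusted p 0.0553 to 0.0649), and at 6 months without prediabetic 1 or 2 or 6 months 1 or 5 (adjusted p 0.0565 to 0.0707) or when only the groups compared were fitted (adjusted p = 0.0516). Acat2 overlaps Tcp1 on the opposite strand, and a strand setting is not given in the sources used here, so reads of the pair may not be told apart.

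Hmgcs1 makes HMG-CoA from acetoacetyl-CoA. It stood at 5642, 6344, 7039, 5361 and 8644 before diabetes, 8686, 7992, 12195 and 7490.0 at 2 weeks and 15516, 12306, 18265, 12388 and 8318 at 3 months. At 6 months it was 5895 at the lowest, 12468 at the median and 24779 at the highest. Every 3-month library but 3 months 5 was above the highest prediabetic value, and at 6 months every library but 6 months 2 was. The difference was 0.99 ± 0.29 at 3 months (limma adjusted p = 0.0264) and 1.01 ± 0.28 at 6 months (limma adjusted p = 0.0157). The 3-month call was lost without prediabetic 1 or 4 or 3 months 1 or 3 (adjusted p 0.0533 to 0.0685). The kinases and the decarboxylase that turn mevalonate into isopentenyl diphosphate gave a single call. Mvk, the mevalonate kinase, ran from 259 to 389 before diabetes, from 254 to 407 at 2 weeks and from 313 to 489 at 3 months, and at 6 months it was 332 at the lowest, 454 at the median and 564 at the highest. It was called at 6 months only, at 0.47 ± 0.16 (limma adjusted p = 0.0419), with overlapping groups. That call was lost without prediabetic 1, 2, 3 or 5 or 6 months 1, 4, 5 or 6 (adjusted p 0.0542 to 0.1002). It was also lost with equal library totals (0.37, adjusted p = 0.116), with no filter (adjusted p = 0.0567) and when only the groups compared were fitted (adjusted p = 0.0508). Pmvk, the next kinase, and Mvd, the decarboxylase, were not called at any stage and differed from prediabetic rats by 0.14 and 0.54 at 6 months.

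Idi1 converts isopentenyl diphosphate into the isomer that starts chain growth. Prediabetic libraries held 334, 387, 678, 819 and 759.9 and the 2-week libraries 789, 776, 1320.0 and 1436. At 3 months the values were 3486, 1670.5, 3397, 1816 and 1669.6, and at 6 months 875 at the lowest, 2284 at the median and 4169 at the highest. Every 3-month and 6-month library was above every prediabetic library. Idi1 was higher by 2.02 ± 0.36 at 3 months (4.05-fold, limma adjusted p = 0.00137) and by 1.90 ± 0.34 at 6 months (3.73-fold, limma adjusted p = 0.000926). Fdps, which makes farnesyl diphosphate, ran from 3623 to 8365 before diabetes, 5242 to 13452 at 3 months and 3883 to 13789 at 6 months. It was not called, at 0.63 ± 0.33 and 0.71 ± 0.32. Without 6 months 2, Fdps was called at 6 months (0.96, limma adjusted p = 0.0221). Ggps1 makes geranylgeranyl diphosphate for protein prenylation, off the sterol route. It was 303, 249.7, 322, 321 and 268 before diabetes, 369.6, 347, 361 and 466 at 2 weeks, 349, 413, 404, 336 and 334 at 3 months and, at 6 months, 357 at the lowest, 391 at the median and 434 at the highest. Every library of each diabetic group exceeded every prediabetic one, by small amounts. The difference was 0.40 ± 0.11 at 2 weeks (limma adjusted p = 0.387), 0.33 ± 0.11 at 3 months (limma adjusted p = 0.0403) and 0.43 ± 0.10 at 6 months (limma adjusted p = 0.00611). The 3-month call was lost without prediabetic 1, 2 or 5 or 3 months 1, 2 or 3 (adjusted p 0.0517 to 0.102). It was also lost with no filter (adjusted p = 0.0564) and when only the groups compared were fitted (adjusted p = 0.0930).

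Fdft1, squalene synthase, commits carbon to sterols. It was 2946, 3039, 3955, 3791 and 4015 before diabetes, 4879, 4669, 5676 and 4823 at 2 weeks and 6954, 4586, 8828, 7874 and 5135 at 3 months, and at 6 months it was 6843 at the lowest, 7766 at the median and 9189 at the highest. All libraries of each diabetic group stood above all prediabetic ones, and all 6-month libraries stood above all 2-week ones. The difference was 0.51 ± 0.16 at 2 weeks (not called, limma adjusted p = 0.438), 0.88 ± 0.15 at 3 months (limma adjusted p = 0.00125) and 1.16 ± 0.15 at 6 months (limma adjusted p = 5.87e-05). Sqle, the squalene epoxidase and a control point of the route, had the largest difference of any member. Its values were 247, 203, 469.6, 534 and 599 before diabetes and 828.97, 469, 1120.4 and 1317 at 2 weeks. They were 3152, 1300.2, 2808, 2463 and 997 at 3 months and 1191 at the lowest, 2143 at the median and 3133 at the highest at 6 months. No 3-month or 6-month library reached down to the prediabetic range. The difference was 1.21 ± 0.39 at 2 weeks (not called, limma adjusted p = 0.454), 2.37 ± 0.37 at 3 months (5.17-fold, limma adjusted p = 0.000534) and 2.49 ± 0.35 at 6 months (5.60-fold, limma adjusted p = 0.000143). Lss, which closes the ring to lanosterol, was not called, at 0.57 ± 0.29 and 0.64 ± 0.28. Leaving out 6 months 2 gave Lss a call at 6 months (0.90, limma adjusted p = 0.00897).

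**Figure D2:**
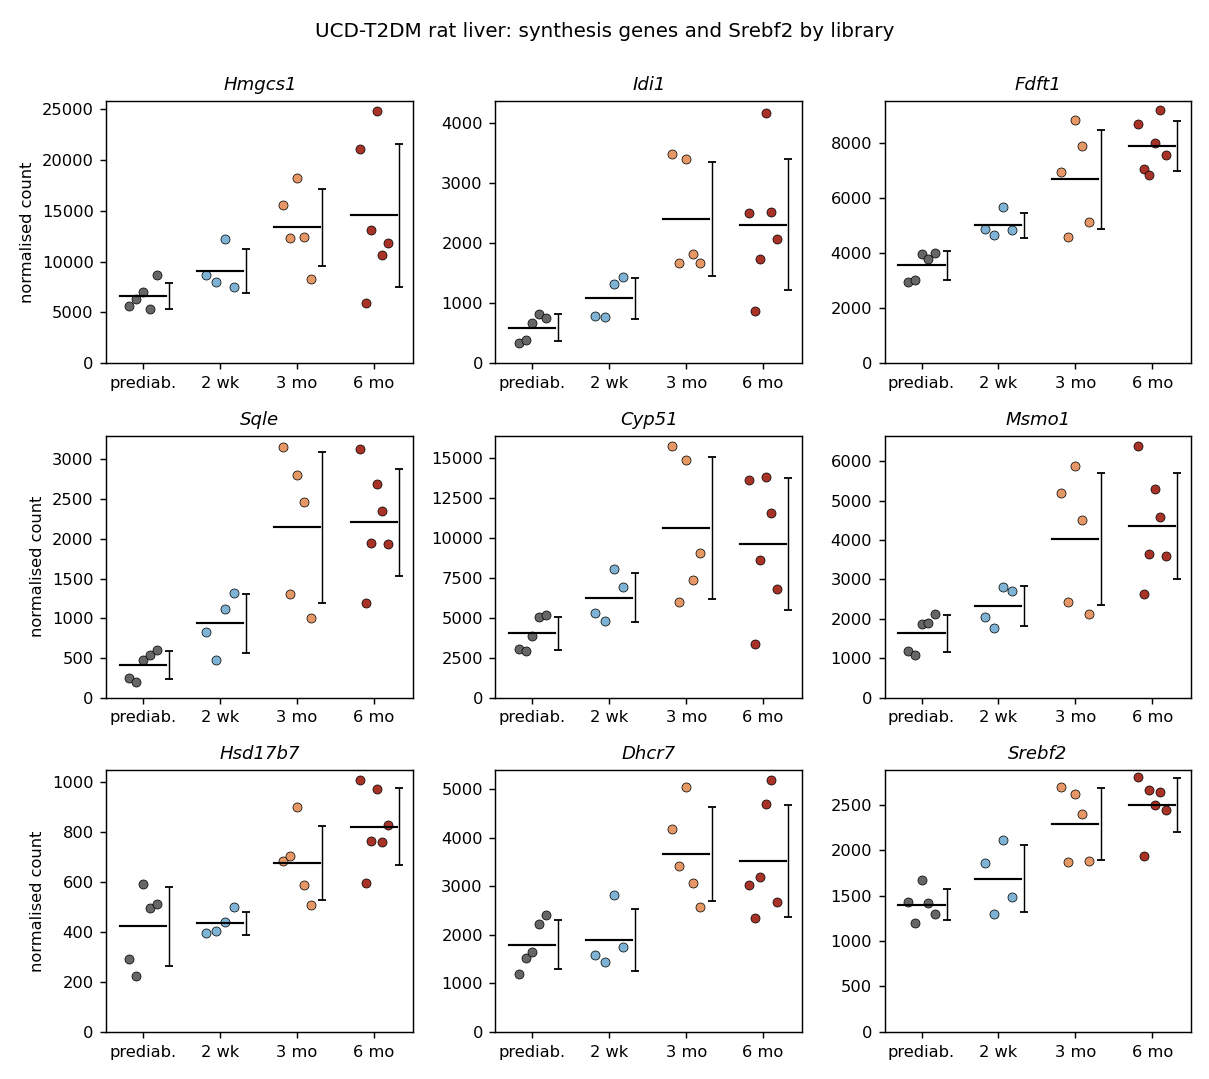
Normalised count of 8 synthesis genes and Srebf2 in each rat library by stage; points are libraries, long lines group means and bars the SD. Every 3-month and 6-month point of Idi1, Sqle and Fdft1 lies above the prediabetic points, and Sqle reaches 3152 at 3 months and 3133 at 6 months against at most 599 before diabetes.

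The enzymes that trim lanosterol to cholesterol did not all move. Cyp51, the lanosterol demethylase, was 3066, 2935, 3879, 5033 and 5144 before diabetes, 5304, 4764, 8067 and 6890.5 at 2 weeks and 15739.6, 5975, 14842, 7338 and 9019.8 at 3 months, and at 6 months it was 3341 at the lowest, 10094 at the median and 13813 at the highest. All 3-month libraries exceeded the prediabetic ones, while 6 months 2 fell inside their range. The difference was 1.33 ± 0.34 at 3 months (limma adjusted p = 0.0124) and 1.15 ± 0.33 at 6 months (limma adjusted p = 0.0173). Tm7sf2, a sterol reductase that works after Cyp51, was 1682, 1810.2, 1446, 2355 and 1803 before diabetes and 2449, 2564, 2784 and 2235 at 2 weeks. It was 3303, 1853, 4686, 3448 and 3449.7 at 3 months and 2656 at the lowest, 3225 at the median and 6394 at the highest at 6 months. The difference was 0.84 ± 0.23 (limma adjusted p = 0.0179) and 1.05 ± 0.22 (limma adjusted p = 0.00281), and only 3 months 2 lay inside the prediabetic range. The 3-month call was lost without 3 months 3 (adjusted p = 0.0513).

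Msmo1, Nsdhl and Hsd17b7 act in sequence to remove a pair of methyl groups from the sterol ring, and they differed among themselves. Msmo1, the oxidase, was 1177, 1082, 1877, 1884 and 2128 before diabetes and 2038, 1759, 2814 and 2705 at 2 weeks, 5196, 2423, 5865, 4513 and 2125 at 3 months and 2636 at the lowest, 4114 at the median and 6383 at the highest at 6 months. It rose by 1.24 ± 0.29 (limma adjusted p = 0.00730) and 1.41 ± 0.28 (limma adjusted p = 0.00173), with 3 months 5 alone among these libraries just inside the prediabetic range. Nsdhl, the dehydrogenase, was not called and had negative differences, -0.25 ± 0.19 and -0.37 ± 0.18, with ranges of 10976 to 18443 before diabetes and 6463 to 14726 at 6 months. Hsd17b7, the ketone reductase, was 291, 224, 593, 495 and 512 before diabetes and 396, 402, 440.0 and 499 at 2 weeks, then 683, 705, 901, 587 and 507 at 3 months and 594 at the lowest, 795 at the median and 1009.5 at the highest at 6 months. The 6-month libraries all exceeded the prediabetic ones, and 3 months 4 and 5 lay inside the prediabetic range. Hsd17b7 rose by 0.74 ± 0.22 (limma adjusted p = 0.0280) and 1.03 ± 0.21 (limma adjusted p = 0.00274). The 3-month call was lost without prediabetic 1 or 2 or 3 months 1, 2 or 3 (adjusted p 0.0588 to 0.0739) or when only the groups compared were fitted (adjusted p = 0.0871).

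The isomerase Ebp and the desaturase Sc5d were not called, with 6-month differences of 0.12 ± 0.16 and 0.07 ± 0.18. Sc5d ran from 6140.3 to 10130.4 before diabetes and from 5729.7 to 11418 at 6 months. Dhcr7, which carries out the last reduction to cholesterol, was 1187, 1519, 1642, 2228 and 2412 before diabetes and 1579, 1432, 2823 and 1749 at 2 weeks. It was 4178, 3425, 5035, 3076 and 2572 at 3 months and 2348 at the lowest, 3113 at the median and 5195 at the highest at 6 months. Every 3-month library exceeded every prediabetic one, and 6 months 2 alone fell just inside the prediabetic range. The difference was close to nil at 2 weeks (0.07 ± 0.26), 1.03 ± 0.25 at 3 months (limma adjusted p = 0.00866) and 0.96 ± 0.24 at 6 months (limma adjusted p = 0.00783). The 8 synthesis genes without a call at 3 months were thus Mvk, Pmvk, Mvd, Fdps, Lss, Nsdhl, Ebp and Sc5d, and all but Mvk were also without a call at 6 months.

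Within a group the synthesis genes tended to be high or low together in the same library. In prediabetic rats, libraries 1 and 2 held the lowest value of 7 and 9 of the 19 genes, and libraries 4 and 5 held the highest value of 7 and 9. At 3 months, library 3 was the highest for 13 genes and library 2 the lowest for 10. At 6 months, library 2 was the lowest for 15 of 19 genes. Its mean deviation from the prediabetic mean over the synthesis genes was 0.13 on the log2 scale, while the other 6-month libraries ran from 0.70 to 1.26. Without 6 months 2, 18 members were called at 6 months, all upward. Across all omissions of 1 library, members called at this stage ran from 13 to 18 and all genes called from 1920 to 3573.

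**Figure D3:**
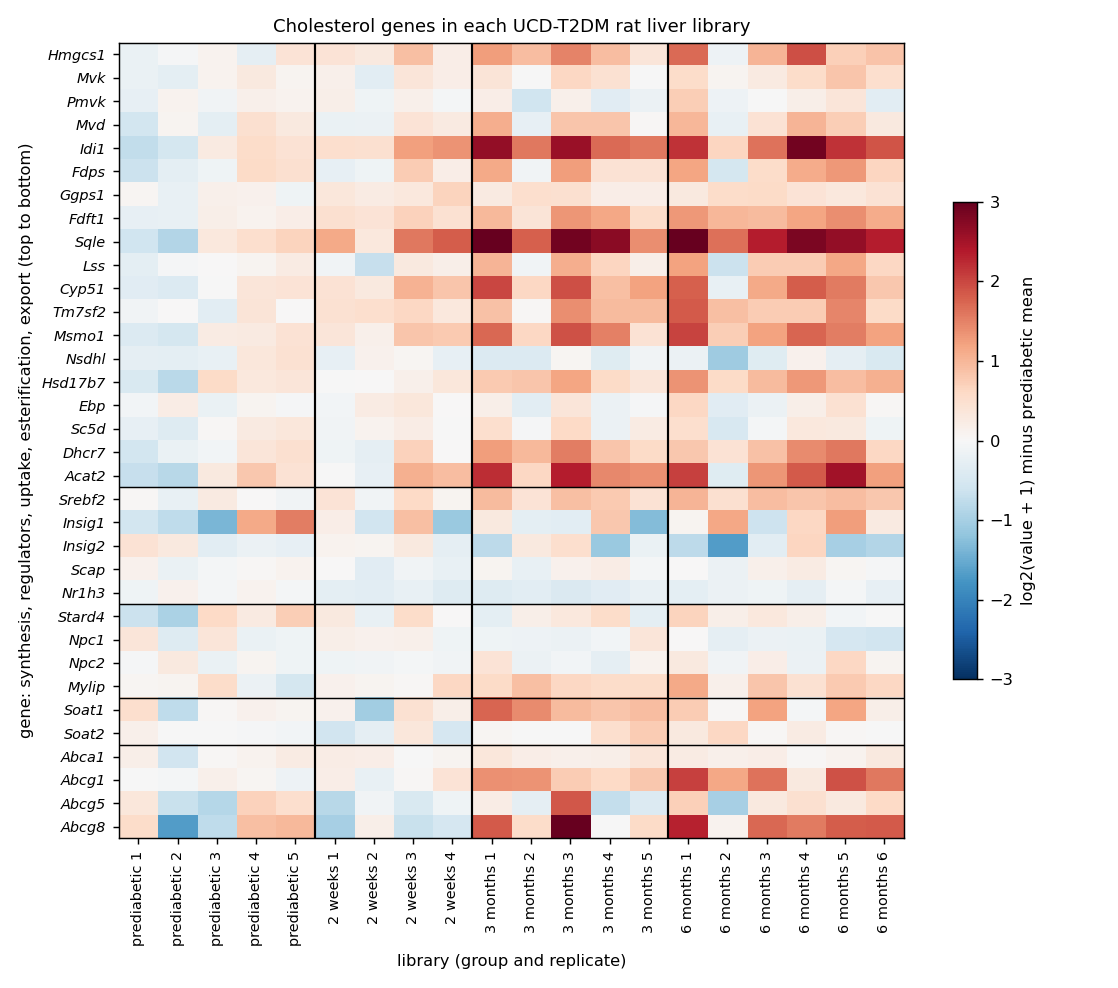
Each member gene (rows, by role from synthesis at the top to export at the bottom) in each of the 20 rat libraries (columns), coloured by log2(value + 1) minus the prediabetic mean; the darkest shades also hold values beyond the ends of the scale. Columns of the same group differ along the synthesis rows, and 6 months 2 is paler there than the other 6-month libraries.

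Among the regulators Srebf2 rose and Nr1h3 fell, while the genes that hold or escort SREBP2 were not called. Srebf2 was 1424, 1201, 1666, 1413 and 1298 before diabetes and 1855, 1297, 2111 and 1481 at 2 weeks. It was 2692, 1865, 2622, 2396 and 1879 at 3 months and 1940.0 at the lowest, 2568 at the median and 2802 at the highest at 6 months, so that every 3-month and 6-month library was above every prediabetic one. The difference was 0.25 ± 0.15 at 2 weeks (not called), 0.70 ± 0.14 at 3 months (limma adjusted p = 0.00334) and 0.83 ± 0.14 at 6 months (limma adjusted p = 0.000426). Nr1h3, the liver LXR, was 4509, 5397, 4689, 5245 and 4711 before diabetes, 4001, 3927, 4201 and 3746 at 2 weeks and 3743, 3917, 3626, 3858 and 4228 at 3 months, and at 6 months 3987 at the lowest, 4237 at the median and 4703 at the highest. Every 2-week and 3-month library was below every prediabetic one, and the 6-month values overlapped them. The difference was -0.30 ± 0.08 at 2 weeks (not called, limma adjusted p = 0.294), -0.34 ± 0.07 at 3 months (limma adjusted p = 0.00460) and -0.20 ± 0.07 at 6 months (limma adjusted p = 0.0495). The 6-month call was lost without prediabetic 2, 3, 4 or 5 or 6 months 1, 2, 3, 4 or 6 (adjusted p 0.0578 to 0.132). It was also lost with no filter (adjusted p = 0.0642), with no variance trend (adjusted p = 0.0637) and when only the groups compared were fitted (adjusted p = 0.117).

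Insig1, itself a target of SREBP2 and strongly induced by feeding and insulin, varied more between prediabetic rats than any other member. Its prediabetic values were 7609, 6604, 4336, 24734 and 32481, with libraries 4 and 5 far above the other three. At 2 weeks it was 12902, 7486, 20855 and 5179.9, at 3 months 13786, 9119, 8968, 19673 and 4520.5 and at 6 months 7259 at the lowest, 15404 at the median and 26515 at the highest. The highest prediabetic value was 7.49 times the lowest, and the groups overlapped throughout. The cause of this spread was not tested. Insig2, whose liver transcript falls with insulin, was not called, at -0.26 ± 0.34 and -0.67 ± 0.33. Without 6 months 4, which held its highest value of 9225, Insig2 was called lower at 6 months (-0.93, limma adjusted p = 0.0210). Scap was not called and stayed within 0.16 of the prediabetic mean at every stage (2 weeks -0.16 ± 0.11, 3 months 0.03 ± 0.10, 6 months 0.05 ± 0.10).

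Of the 4 genes of uptake and intracellular transport, Mylip rose and the others were not called. Mylip was 159, 160.4, 225, 134 and 106 before diabetes and 166, 161, 156 and 236 at 2 weeks, 229, 284, 235, 224 and 224 at 3 months and 169 at the lowest, 249 at the median and 334 at the highest at 6 months. Prediabetic 3 (225) stood above its group and overlapped 3 months 4 and 5 and 6 months 2 and 4. The difference was 0.64 ± 0.19 at 3 months (limma adjusted p = 0.0254) and 0.66 ± 0.18 at 6 months (limma adjusted p = 0.0145). The 3-month call was lost without prediabetic 4 or 5 or 3 months 2 (adjusted p 0.0643 to 0.0733), and the 6-month call without prediabetic 5 (adjusted p = 0.0513). Npc1 and Npc2, which pass cholesterol out of lysosomes, differed by -0.28 ± 0.14 and 0.15 ± 0.14 at 6 months. Stard4, which carries cholesterol between membranes, differed by 0.21 ± 0.26 and ranged from 476 to 1519.8 in prediabetic rats alone.

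Cholesterol is stored as ester by Soat1, found in most cells including macrophages, and by Soat2, found in hepatocytes and intestine. Soat1 was 93.7, 37.9, 67.3, 71.7 and 69.8 before diabetes, 71.2, 31.2, 89.9 and 74.5 at 2 weeks and 223, 177, 127, 117 and 125 at 3 months, and at 6 months 62.5 at the lowest, 93.1 at the median and 153 at the highest. Every 3-month library was above every prediabetic and 2-week one, whereas the 6-month values overlapped both. The difference was 1.18 ± 0.32 at 3 months (limma adjusted p = 0.0163) and 0.55 ± 0.30 at 6 months (not called, limma adjusted p = 0.208). The 3-month call was lost without 3 months 1 (adjusted p = 0.0514). The difference between 6 and 3 months was not called (-0.63 ± 0.30, limma adjusted p = 0.632). Soat2 ran from 1454 to 1695 before diabetes and from 1511 to 2362 at 6 months and was not called, at 0.26 ± 0.17 and 0.21 ± 0.16.

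Of the export genes Abcg1, which moves cholesterol to high-density lipoprotein, was the only one called against prediabetic rats. Its values were 276, 267, 306, 286 and 249.5 before diabetes and 317, 238, 285 and 369.6 at 2 weeks. They were 712, 703, 467, 420.3 and 482 at 3 months and 341 at the lowest, 841 at the median and 1152 at the highest at 6 months. Every 3-month and 6-month library stood above the narrow prediabetic range. The difference was 0.97 ± 0.25 at 3 months (1.96-fold, limma adjusted p = 0.0117) and 1.44 ± 0.23 at 6 months (2.71-fold, limma adjusted p = 0.000426). Abca1, which loads cholesterol onto apolipoprotein A-I, ran from 2333 to 4112 before diabetes, 3831 to 4414 at 3 months and 3529 to 4223 at 6 months. It was not called, at 0.24 ± 0.12 and 0.17 ± 0.11.

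Abcg5 and Abcg8 encode the partners of the transporter that moves sterols into bile. Abcg8 was 176, 36.9, 71.2, 227 and 239 before diabetes, 59.5, 136, 75.3 and 84.2 at 2 weeks and 437, 177, 1319.7, 119 and 181 at 3 months, and at 6 months 131 at the lowest, 415 at the median and 598 at the highest. The spread was wide, from 36.9 to 239 among prediabetic rats, and 3 months 3 stood far above its group. Abcg8 differed from prediabetic rats by 1.28 ± 0.59 at 3 months (limma adjusted p = 0.142) and by 1.56 ± 0.56 at 6 months (limma adjusted p = 0.0548), neither of which was called. At 6 months it was called without 6 months 2 (1.85, limma adjusted p = 0.0278) and without prediabetic 5 (1.80, limma adjusted p = 0.0480). Abcg5 was 897, 447, 393, 1157 and 1006 before diabetes and 825, 592, 2584, 433 and 536 at 3 months, where again library 3 was far above the rest. Its differences were smaller than those of Abcg8, 0.13 ± 0.42 and 0.23 ± 0.40, and were not called.

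**Figure D4:**
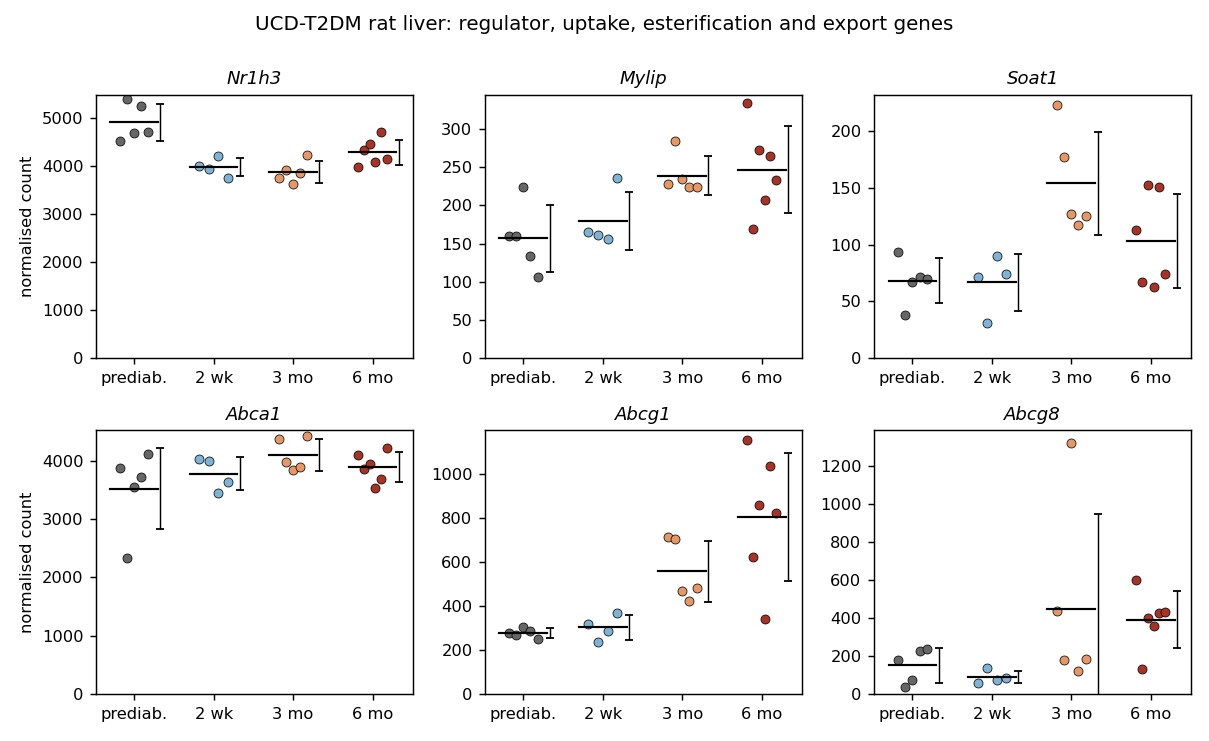
Normalised count of Nr1h3, Mylip, Soat1, Abca1, Abcg1 and Abcg8 in each rat library by stage; points are libraries, long lines group means and bars the SD, which for Abcg8 at 3 months runs below the axis. Abcg1 is at least 341 in every 3-month and 6-month library and at most 306 in every prediabetic one, while Abca1 overlaps throughout.

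Markers of other liver cells moved with these stages. In bulk liver a change in the number of cells of a type cannot be told apart from a change in RNA per cell. Of all genes 7.76% rose and 8.72% fell at 3 months, and 11% rose and 10% fell at 6 months. Of 7 Kupffer and macrophage markers tested, 6 rose at 3 months and 6 at 6 months, among them Marco and Cd5l. Their summed level was 9412 to 13945 before diabetes, 9660.1 to 12008 at 2 weeks, 12651 to 33647 at 3 months and 14273 to 45092 at 6 months. Of 8 stellate cell and fibroblast markers 5 rose at 3 months and 4 at 6 months, with summed levels of 1953 to 3260 before diabetes, 2848 to 4306 at 2 weeks, 4333 to 5448 at 3 months and 3597 to 5599 at 6 months. Of 5 lymphocyte and neutrophil markers 3 rose at either stage, and their summed level was 428 to 613 before diabetes, 494 to 669.7 at 2 weeks, 786 to 3558 at 3 months and 601 to 2700.3 at 6 months. Macrophages express Abcg1, Soat1, Nr1h3 and Abca1, and the part of these cells in the results for those genes was not tested. Of 8 hepatocyte markers 2 fell at 3 months, while 1 rose and 1 fell at 6 months. Of the adipocyte markers Plin1 and Lep were listed at 0 in every rat library, and Cidec, the only one tested, fell at both stages (-0.45 ± 0.14 and -0.67 ± 0.13). The adipocyte markers summed to 3860 to 4562 before diabetes and 2882 to 3958 at 2 weeks. They summed to 2355 to 3929 at 3 months and 2183 to 3169 at 6 months. The part of adipocytes in the fall of Cidec was not tested. Of the acinar markers Prss1 was listed at 0 throughout, and Cela1, the only one tested, fell at 6 months (-0.99 ± 0.19). Bile duct markers gave 1 and 2 rises among 5 tested, sinusoidal endothelium markers 1 and 1 among 5, and red blood cell markers none among 4.

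Neighbouring pathways were read from lists chosen for this pathway, and their counts are to be read against the shares of all genes called, 7.76% up and 8.72% down at 3 months and 11% up and 10% down at 6 months. Of 8 genes tested of fatty acid synthesis, which SREBP1c drives, 2 fell at 3 months and 7 at 6 months, and none rose. Scd, the stearoyl-CoA desaturase, had the largest difference. At 3 months it fell to 192 ± 284 (SD, n = 5) and at 6 months to 463 ± 904 (SD, n = 6), against 62742 ± 30566 (SD, n = 5) before diabetes, a difference of -9.10 ± 0.90 and -8.65 ± 0.86 (limma adjusted p = 5.02e-06 and 5.14e-06). Acly, which supplies cytosolic acetyl-CoA to both pathways, differed by -1.01 ± 0.33 and -1.16 ± 0.32, and Fads2, a desaturase, by -1.76 ± 0.41 at 6 months, all called. Srebf1 was the 1 called gene at 3 months among 10 other genes of SREBP processing and sterol-regulated degradation, at -1.33 ± 0.30 (limma adjusted p = 0.00654). At 6 months Srebf1 (-1.10 ± 0.29, limma adjusted p = 0.0114) and Erlin2 (-0.40 ± 0.11, limma adjusted p = 0.0174) were lower. Srebf2 and Srebf1 therefore differed from prediabetic rats in opposite directions in the same libraries.

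Other branches draw on mevalonate for other products. Of 16 genes of ubiquinone, dolichol and prenylation, 7 fell at 3 months and 6 at 6 months, and none rose. The largest falls were in Coq2, an enzyme of ubiquinone synthesis (-0.50 ± 0.08 and -0.46 ± 0.08), and Icmt, which methylates prenylated proteins (-0.50 ± 0.11 and -0.51 ± 0.11). Next in size came Coq7 at 3 months (-0.49 ± 0.15) and Coq5 at 6 months (-0.35 ± 0.10), both of ubiquinone synthesis. Among 9 genes listed for bile acids and oxysterols, enzymes and transport included, 2 rose and 2 fell at 3 months. At 6 months 3 rose and 2 fell. Cyp8b1, which sets the share of cholic acid, was lower (-1.94 ± 0.44 and -2.17 ± 0.42), and Cyp7b1, of the oxysterol route, was higher (1.82 ± 0.50 and 2.12 ± 0.47). Abcb11, the bile salt pump, was higher at 3 months (0.80 ± 0.11), and Ch25h, which makes an oxysterol, was higher at 6 months (1.97 ± 0.38). Among 12 other genes of uptake, ester hydrolysis and sterol transfer, Gramd1b rose and Stard3 fell at both stages (0.99 and 0.76, -0.32 and -0.34), a count near the share of all genes called either way (16.5% and 21.1%). Of 6 other LXR partners and targets none was called at 3 months and Pltp rose at 6 months (0.66 ± 0.21).

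The diabetic stages were also compared with each other. Between 6 months and 2 weeks 7 of 34 members were higher at 6 months and none lower, against 4.66% and 4.16% of all genes, or 8.82% either way. They were Fdft1 (0.65 ± 0.16, limma adjusted p = 0.0172), Sqle (1.28 ± 0.38, adjusted p = 0.0405), Hsd17b7 (0.90 ± 0.23, adjusted p = 0.0205), Dhcr7 (0.89 ± 0.25, adjusted p = 0.0351), Srebf2 (0.58 ± 0.14, adjusted p = 0.0191), Abcg1 (1.33 ± 0.25, adjusted p = 0.00440) and Abcg8 (2.06 ± 0.60, adjusted p = 0.0385). For Fdft1 and Hsd17b7 every 6-month library was above every 2-week one. The number of member calls changed when single libraries were left out, and so did the number of all genes called. The members called were 2 without 2 weeks 1, 1 without 2 weeks 2, 4 without 2 weeks 4 and 4 without 6 months 5. Over every such omission they ran from 1 to 10, and all genes called ran from 317 to 1717, against 1203 with every library. The Abcg1 call held in every omission, and the other 6 were lost in at least 2 of them. Fdft1 and Hsd17b7 lost theirs without 2 weeks 1 or 2, and Srebf2 without 2 weeks 2 or 4. Dhcr7 lost its call without 2 weeks 1, 2 or 4 or 6 months 5 (adjusted p 0.0795 to 0.133), Sqle without 2 weeks 1, 2 or 3 or 6 months 1, 3, 4, 5 or 6 (adjusted p 0.0501 to 0.170) and Abcg8 without 2 weeks 1, 2, 3 or 4 or 6 months 1, 3, 5 or 6 (adjusted p 0.0599 to 0.110). With no filter the calls of Abcg8 (adjusted p = 0.0526) and Sqle (adjusted p = 0.0550) were lost, with no variance trend that of Sqle (adjusted p = 0.0508), and with only the groups compared that of Dhcr7 (adjusted p = 0.0512). With libraries rescaled to equal totals 3 members were called up and 1 down (Npc1, -0.54, limma adjusted p = 0.0460), the calls of Fdft1, Sqle, Dhcr7 and Srebf2 were lost (adjusted p 0.0523 to 0.0806), and the share of rises among all called genes went from 52.9% to 16.0%. That rescaling moved the median of all genes to -0.18, and relative to it the member median was 0.53 higher, as it was with the deposited scaling. Of the Kupffer markers 6 of 7 were higher at 6 months than at 2 weeks as well.

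Between 3 months and 2 weeks no member of 34 was called, against 1.15% of all genes up and 1.2% down, or 2.35% either way, and the synthesis median was 0.49. The nearest members were Soat1 (1.25 ± 0.34, limma adjusted p = 0.0539) and Dhcr7 (0.96 ± 0.26, limma adjusted p = 0.0574). Without 2 weeks 3 or without 3 months 5, 3 members were called, all upward. Over every omission of 1 library, all genes called ran from 41 to 557, against 320 with every library. Between 6 and 3 months no member was called, against 0.0147% of all genes (2 genes), and 1058 genes had an unadjusted p under 0.05. The synthesis median was then 0.08, with differences from -0.18 to 0.29. With equal library totals the median of all genes moved to -0.15 and the median member from 0.09 to -0.07, so that 9 members in place of 23 were positive. A call missed does not show that the stages were alike. The SE was largest for Abcg8 in both comparisons, 0.62 between 3 months and 2 weeks and 0.56 between 6 and 3 months.

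In mice LNA-29 was followed by lower Abca1 and Tm7sf2, while no cholesterol gene rose past the test. Of 35 members none was called up and 2 down, against 1.57% and 0.863% of all genes, or 2.43% either way. With libraries rescaled to equal totals the share of rises among all called genes went from 64.5% to 78.6%, and 1 member was called. Abca1 was 8155 at the lowest, 9489 at the median and 11295 at the highest in control libraries and 6876, 6950.1, 7036, 7826 and 5599 in treated ones, and every treated library was below every control. The difference was -0.49 ± 0.11 (0.714 of the control level, limma adjusted p = 0.0365). Its call was lost without control 1, 2 or 3 or treated 1, 3 or 5 (adjusted p 0.0682 to 0.0932) and with no variance trend (adjusted p = 0.0666). Tm7sf2 was 2069 at the lowest, 2692 at the median and 3058 at the highest in controls and 1783, 2160.4, 1658, 1678 and 2185 in treated libraries, which overlapped at the low end of the controls. The difference was -0.46 ± 0.11 (limma adjusted p = 0.0489), and the call was lost without control 2, 3, 4, 5 or 6 or treated 1, 3, 4 or 5 (adjusted p 0.0598 to 0.127). It was also lost with no filter (adjusted p = 0.0681), with equal library totals (adjusted p = 0.1002) and with no variance trend (adjusted p = 0.0834). The other export genes had negative differences too, none called: Abcg8 -0.21 ± 0.11, Abcg5 -0.18 ± 0.11 and Abcg1 -0.11 ± 0.15.

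The synthesis genes of the mice varied mainly between libraries of the same group. Of 20 genes 15 had a positive difference, with a median of 0.32 against 0.00 for all genes, and none of these was called. Sqle was 2297, 461, 3596, 1719.5 and 1941 in treated libraries, and in controls it was 354 at the lowest, 1258 at the median and 3934 at the highest. Idi1 was 5079.8, 1283, 9611, 4525 and 5436 in treated libraries, and in controls 767 at the lowest, 2472 at the median and 10006 at the highest. For both genes every treated library lay within the range of the controls. Control 5 held the highest value of 17 of the 20 genes within its group and treated 3 of 18, while treated 2 held the lowest of 17. The lowest control values were in control 4 (9 genes) and control 1 (8 genes). The median ratio of the highest to the lowest library was 4.18 among controls (n = 6) and 2.74 among treated mice (n = 5). In rats it was 1.68 before diabetes (n = 5), 1.60 at 2 weeks (n = 4), 2.09 at 3 months (n = 5) and 2.36 at 6 months (n = 6). Such a ratio tends to rise with the number of libraries, so groups of unlike size are not compared on equal terms. Idi1 differed by 0.85 ± 0.63, Sqle by 0.62 ± 0.63 and Hmgcs1 by 0.58 ± 0.47. Dhcr7, with the smallest p among the uncalled synthesis genes, differed by 0.48 ± 0.17 (limma adjusted p = 0.156). Tm7sf2 did not share this pattern, since treated 3, highest for 18 genes, held its lowest value in the group (1658).

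**Figure D5:**
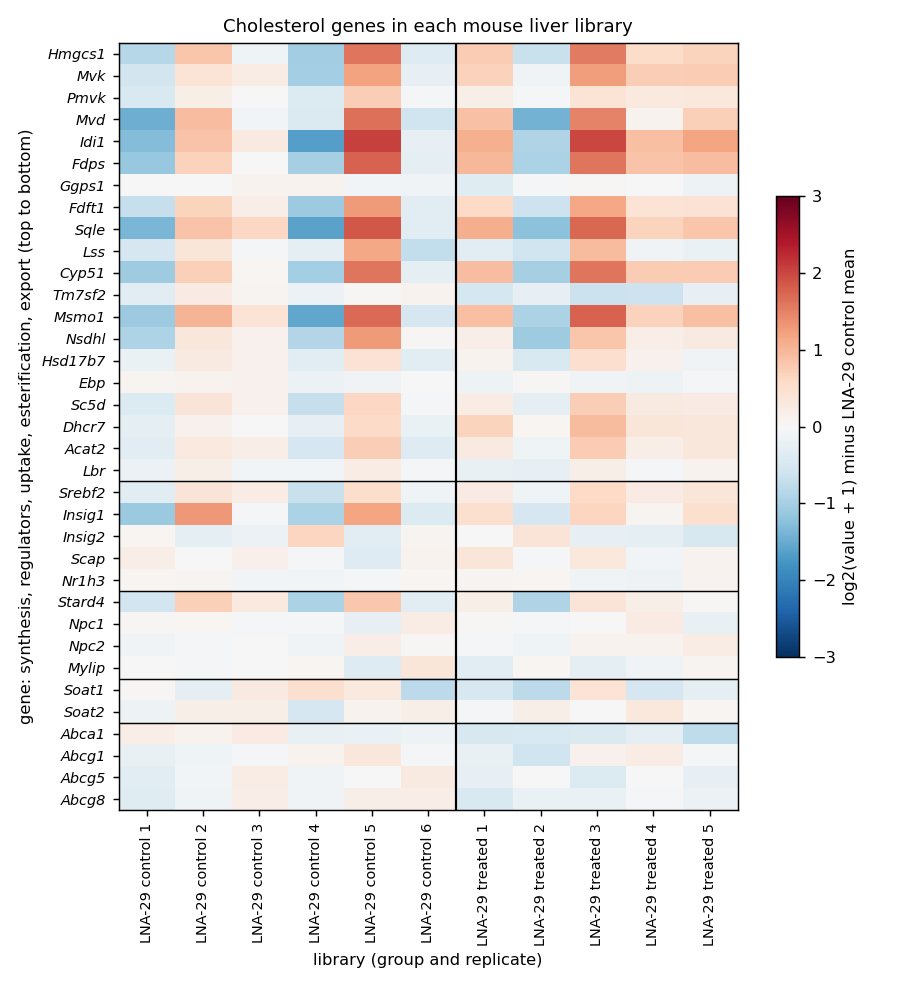
Each of the 35 member genes (rows, by role) in each of the 11 mouse libraries (columns), coloured by log2(value + 1) minus the control mean. The synthesis rows are high in control 5 and treated 3 and low in controls 1 and 4 and treated 2, and the Abca1 row is below the control mean in every treated library.

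The remaining mouse members were not called. Srebf2 ran from 1282 to 2946 in controls and from 1859 to 3083 in treated libraries (0.26 ± 0.20). Insig1 (0.23 ± 0.42), Stard4 (-0.03 ± 0.32), Nr1h3 (-0.01 ± 0.06) and Npc1 (0.00 ± 0.09) also overlapped between groups. Lbr, the sterol reductase listed in the mouse table alone, differed by -0.05 ± 0.10. Of the neighbouring pathways Cyp7a1, the rate-limiting enzyme of bile acid synthesis, was lower (0.499 of the control level, limma adjusted p = 0.0121) and was the only one called of 8 bile acid and oxysterol genes. Scd1 was lower (-1.65 ± 0.39, limma adjusted p = 0.0459), the only one called of 9 fatty acid synthesis genes. Dolk, the dolichol kinase, was higher (0.33 ± 0.06), as was Erlin2 (0.30 ± 0.06), each the only one called in its list. None of 12 other uptake and transfer genes and none of 6 LXR partners was called. Of all cell type markers tested in mice Clec4g, of sinusoidal endothelium, was the only one called, upward. Over all mouse genes tested 1.57% were called up and 0.863% down. Kupffer marker sums were 6764 to 9376 in controls and 5729 to 11151 in treated libraries.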

How the data were processed

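Polyadenylated liver RNA was read with Illumina TruSeq kits, per the labels' protocols, in 20 rat and 11 mouse libraries. The deposited values are the authors' normalised counts per gene, a signal scaled between libraries that is not whole-numbered. The submitters' processing notes name STAR, Salmon and DESeq2 and the builds rn6, mm9, mm10 and hg19, with no version or role, and neither the strand setting nor the filters are given in the sources used here. Raw depth is unknown, so precision rests on the spread between libraries. Values of 1 read differed between genes within a library, so read counts could not be recovered and no count model was used.

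Values were taken as log2(value + 1), which understates changes of low genes. Genes averaging 10 or more across the libraries of a species were fitted with limma 3.58.1 in R 4.3.3, with a variance trend, over all groups of that table. P-values were adjusted by Benjamini-Hochberg over all genes tested, and those under 0.05 were called. The script was tested on simulated data. Rats were grouped by labelled stage and mice by labelled treatment, giving 6 comparisons in rats and 1 in mice. Fold values are 2 raised to the log2 difference.

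The members, gene lists and tests were chosen with earlier results of these data known. Called members are given with their library values and other members by range and counts. Up to 3 called genes of largest difference are named in each neighbouring list. Alternatives were a pseudocount of 10, no filter, median-of-ratios and library-total scaling, no variance trend, a replicate block, fitting only the groups compared and leaving out each library. The small RNA tables were not used here.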

Additional observations from a re-analysis of the deposited data

Results flagged for a closer look

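In groups of 4 to 6 libraries, a value was listed when its gap to the nearest other library was a large share of the group's range (Dixon's 95% limit). This marked 10 of 206 gene and group combinations, and chance marks about 1 in 20. In rats Abcg5 was 2584 and Abcg8 1319.7 in 3 months 3, where the next highest libraries held 825 and 437. Abcg5 was 355 in 6 months 2, and the next lowest held 872. Npc1 was low in 2 weeks 4 (2853, next 3440) and high in 3 months 5 (4017, next 2965). Mylip was high in 2 weeks 4 (236, next 166) and in 3 months 2 (284, next 235). Soat2 was high in prediabetic 1 (1695, next 1509.9). In mice Lss was high in treated 3 (2244, next 1072) and Insig2 in control 4 (32262, next 21864).

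The difference from prediabetic rats was larger at 6 months than at 2 weeks for 7 members by the test of 6 months against 2 weeks itself. On the log2 scale the gap was 0.65 for Fdft1, 1.28 for Sqle, 0.90 for Hsd17b7, 0.89 for Dhcr7, 0.58 for Srebf2, 1.33 for Abcg1 and 2.06 for Abcg8 (limma adjusted p 0.00440 to 0.0405). The causes were not tested.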

How the results depend on the processing

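No called member difference turned direction under any alternative run. Of 41 called member results, 29 stayed called under every change of pseudocount, filter, scaling, variance model, block and fitted groups, 22 in every omission of a library, and 22 in both. Against prediabetic rats, omissions gave 0 members and 0 to 3 genes at 2 weeks, 11 to 16 members and 1449 to 2393 genes at 3 months, and 13 to 18 members and 1920 to 3573 genes at 6 months. They gave 0 to 3 members and 41 to 557 genes for 3 months against 2 weeks, 1 to 10 members and 317 to 1717 genes for 6 months against 2 weeks, and 0 members and 0 to 4 genes for 6 against 3 months. In mice they gave 0 to 2 members and 120 to 540 genes. The lowest counts of all genes came without 3 months 1 (1449), without 2 weeks 2 (41 and 317) and without treated 3 (120), and the high ones without 3 months 5 (557) and treated 2 (540). The 3-month against 2-week comparison called 320 genes, and 211 with library totals or 169 from those groups alone. The 6-month against 2-week comparison called 1203, and 2501 genes and 4 members with library totals. For 6 against 3 months a pseudocount of 10 gave 5 genes in place of 2. In mice, where 355 genes and 2 members were called, no filter gave 212 genes and 1 member, library totals 182 and 1, and no variance trend 195 and 0. The cause was not tested.

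Replicate numbers are shared between groups by label alone. Same-numbered libraries did not deviate together in every pair (r from -0.18 to 0.22), and in no comparison was every library closest to its own number. The replicate block gave 195 genes and 1 member (Srebf2, 0.47, limma adjusted p = 0.0298) for 3 months against 2 weeks, 574 genes and 5 members for 6 months against 2 weeks, 1 for 6 against 3 months, and 70 genes and 0 members in mice. Under the block the calls of Ggps1 at 3 months (adjusted p = 0.0540) and Nr1h3 at 6 months (adjusted p = 0.0958) against prediabetic rats, of Abcg8 (adjusted p = 0.0921) and Dhcr7 (adjusted p = 0.0553) between 6 months and 2 weeks, and of Abca1 (adjusted p = 0.0746) and Tm7sf2 (adjusted p = 0.0768) in mice were lost. It ended no other member call. Raw depth is not known, so the limit for low genes such as Soat1 is the spread between libraries.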
